A study of Mus musculus with 4 samples.

Results

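The genes described here encode the cyclins, Cdks and Cdk inhibitors of G1. They number 10 and were taken by name from an RNA sequencing table of 21090 genes, all 10 were present, and all 10 passed the filter for testing, a mean of at least 1 RPKM over the libraries (10871 genes did). RPKM is the read count of a gene divided by its length in kilobases and by the depth of its library. Progress of a cell from G1 into S phase is governed by a small set of proteins. The D-type cyclins Ccnd1, Ccnd2 and Ccnd3 respond to growth signals and activate the kinases Cdk4 and Cdk6, the E-type cyclins Ccne1 and Ccne2 activate Cdk2, and both kinds of kinase phosphorylate the retinoblastoma protein and so release E2F transcription factors. Cdkn1b encodes p27, which binds and inhibits cyclin E-Cdk2 complexes, and the Cdkn2a locus encodes both the Cdk4 and Cdk6 inhibitor p16Ink4a and p19Arf, which stabilizes p53. Cyclin D1 and Cdk4 are needed for mammary tumors in several mouse models, and Cdkn2a is often highly expressed where p53 or the retinoblastoma protein is disabled.

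The table covers 4 cell lines from mouse mammary tumors, each with 1 library. The study describes 1 starting line, from a primary tumor with lung metastasis. It came from mice with an activated Pik3ca allele and a dominant-negative Trp53 allele. Cre expressed from the MMTV promoter, active in mammary epithelium, switches both on. The controls (n = 2) were the parental cells and cells given the vector control. The knockouts (n = 2) were made with lentivirus expressing Cas9 and a guide RNA against exon 3 or exon 2 of S100a4, whose product is a calcium-binding protein of the S100 family, with puromycin selection. In the titles the cell name is 307 for 3 libraries but 308 for the exon 2 knockout. Whether 308 is another starting line is not stated, so the exon edited and the cell name cannot be told apart. Beside values below, the libraries are called parental, vector, exon 3 and exon 2. Whether the edited lines were clones is not stated. A control or knockout group is thus a pair of different lines, and p-values below measure the spread between such lines.

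Library totals, inferred from the RPKM values and annotated coding lengths, lay between 22472024 and 31235456 reads. The reads recovered for the genes made up 66.1% to 67.8% of these totals. S100a4 was 3576 RPKM (parental), 4741 (vector), 1136 (exon 3) and 1105 (exon 2), so the edited gene was lower in both libraries labelled as knockouts. Its log2 change was -1.88 (SE 0.311, limma adjusted p 0.0731). Even the edited gene thus did not pass the limma test of RNA level used below, though it passed under some alternative settings given at the end. This limits what a gene that fails the test can show. For the knockout itself, the study reported truncating mutations in most S100a4 transcripts and loss of the protein by Western blot. Of 10 mammary epithelial markers only Krt8 and Krt18 reached a mean of 1 RPKM, and Krt5, Krt14, Epcam and Cdh1 stayed below 1 in every library. All 10 mesenchymal markers reached that mean. The epithelial markers summed to 130 (parental), 34.7 (vector), 107 (exon 3) and 75.1 RPKM (exon 2), lowest in the vector control. The mesenchymal markers summed to 4789 RPKM in the parental line and to between 2219 and 2579 in the other 3 lines. Markers of leukocytes, endothelium and adipocytes summed to less than 1 RPKM per list in every library, and all 4 adipocyte markers were at 0. The part of these differences in the results below was not tested. In bulk RNA, fewer cells in a given phase and less RNA per cell cannot be told apart.

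The order of the genes by level was the same at both ends in every line. Cdkn2a was highest in each, and Ccne2 lowest. By mean RPKM over the 4 libraries Cdkn2a (1049) ranked 37 of 10871 tested genes, Cdk4 (553) ranked 98 and Ccnd1 (442) ranked 135. Ccnd3 (94.3) and Ccnd2 (92.5) followed, then Cdkn1b (40.9), Cdk2 (32.5), Cdk6 (20.4), Ccne1 (16.3) and Ccne2 (3.11). Neighbors in this order often could not be separated. The ranges of Cdk4 and Ccnd1 over the libraries overlapped, as did those of Ccnd3 and Ccnd2, of Cdkn1b and Cdk2, of Cdk2 and Cdk6, and of Cdk6 and Ccne1. RPKM divides by gene length, which the values show to be 1098 bases for Ccnd1 and 1050 for Ccnd2, against longest annotated coding sequences of 888 and 870. Levels between genes depend on these lengths, whereas levels of 1 gene between libraries do not. In GRCm38, Ccnd1 spans 144929931 to 144939925 of chromosome 7, Ccnd2 127125162 to 127152193 of chromosome 6, Ccne2 11191351 to 11204779 of chromosome 4, Cdk2 128697939 to 128705031 and Cdk4 127063534 to 127067920 of chromosome 10, Cdk6 3341485 to 3531008 of chromosome 5, and Cdkn1b 134920401 to 134925513 of chromosome 6.

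**Figure D1:**
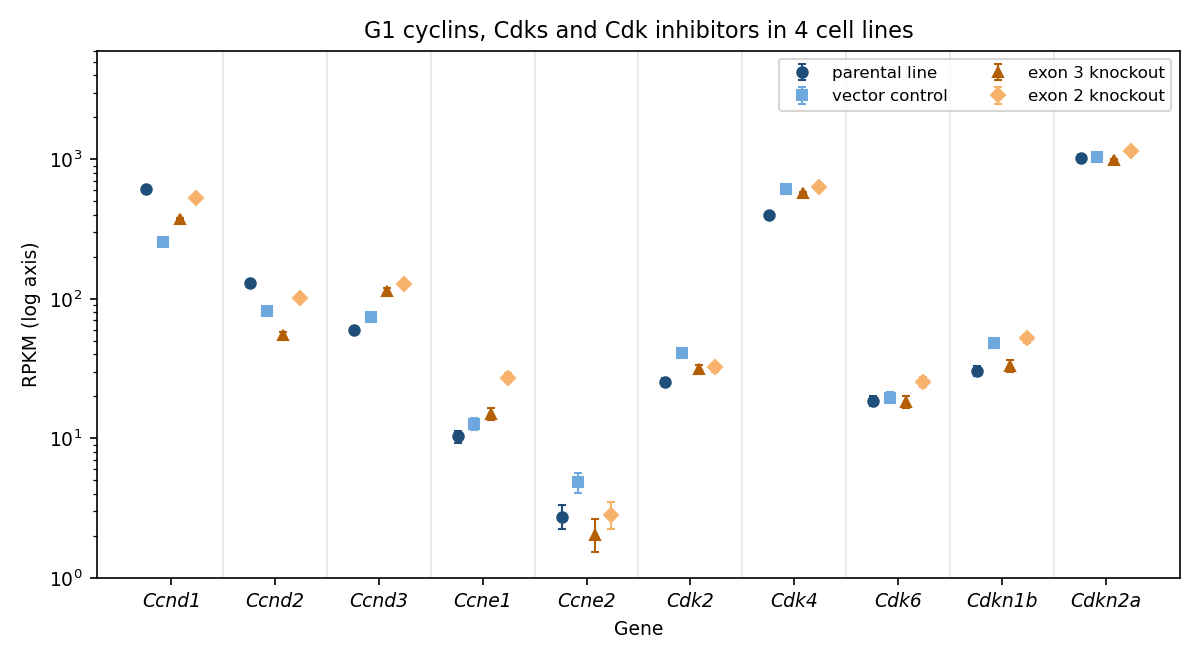
RPKM of the 10 genes (log axis) in each of the 4 libraries, 1 point per library. Bars are exact 95% Poisson intervals of the reads and cover counting error only. Both knockouts lie above both controls for Ccnd3 and Ccne1, and Ccnd1 differs most between the parental line (609) and the vector control (253).

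The first question was whether the level of any of these genes differed between the S100a4 knockouts and the controls. The study also measured growth, and reported that the knockout left proliferation unaffected beside the parental line. Ccnd3 and Ccne1 were higher in both knockouts than in both controls, each about 1.8-fold by group means, and no gene of the 10 passed the test. In limma, fitted on log2(RPKM + 1) over all 10871 genes, the adjusted p was under 0.05 for 0 of the 10 and for 2 of all tested genes (0.0184%). At an unadjusted p under 0.05 there was 1 of the 10 (Ccnd3), against 19.1% of all tested genes. With 2 libraries against 2 the exact two-sided permutation test cannot give a p below 0.333. Both knockouts were above both controls for 2 of the 10, and for 21.9% of all tested genes. Both knockouts were below both controls for 0 of the 10, against 31.2% of all tested genes. Knockouts and controls were 2-fold or more apart in every one of the 4 pairs for 0 of the 10 and for 2.0% of all tested genes. The median log2 change was 0.14 for the 10 genes (7 higher and 3 lower) and -0.08 for all tested genes. For 6 of the 10 the log2 change was smaller than its SE.

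**Figure D2:**
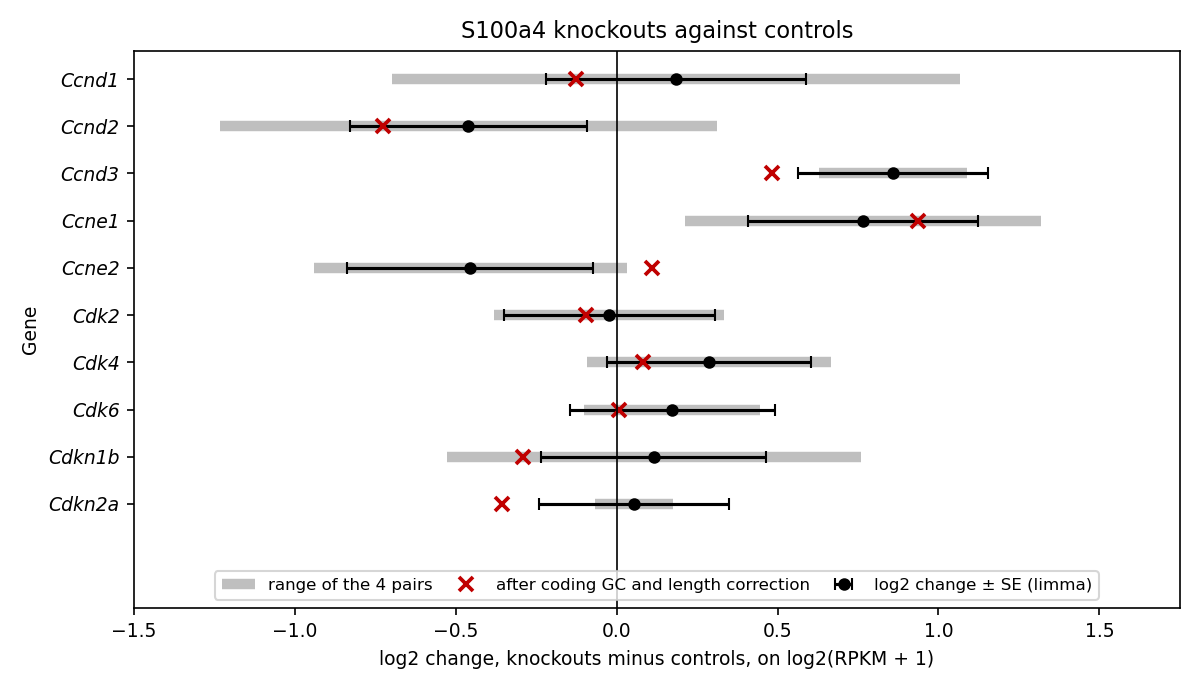
Log2 change of each gene, knockouts minus controls, on the log2(RPKM + 1) scale. Black points are the limma estimate ± SE, gray bars span the 4 knockout and control pairs, and red crosses are the estimate after correction for coding GC content and length. The gray bars of Ccnd3 and Ccne1 do not reach 0, and the cross of Ccnd3 (0.48) lies below its estimate (0.86).

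Ccnd3, a D-type cyclin with a well-known role in lymphoid cells, had the largest log2 change of the 10. Its RPKM was 60.1 (parental), 73.8 (vector), 115 (exon 3) and 129 (exon 2). The groups did not overlap, and the spread within each pair was small beside the gap. Controls averaged 66.9 ± 9.73 and knockouts 122 ± 9.94 (SD, n = 2 each). The reads behind these values numbered 1659 to 2560 per library, so counting error was small. The log2 change was 0.86 (SE 0.296, limma adjusted p 0.178), and each knockout exceeded each control by between 1.55-fold and 2.14-fold. After correction of each library for coding GC content and length the log2 change was 0.48 (limma adjusted p 0.540), with the libraries still apart by group. Ccnd3 has a high coding GC content, 61.7%. Ccnd3 spans 47505051 to 47599691 of chromosome 17 in GRCm38, plus strand. Bysl overlaps it on the opposite strand, and a processed pseudogene, Ccnd3-ps, is annotated on chromosome 4; how reads shared with either were assigned is not stated.

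Genes with a profile most like that of Ccnd3 were sought among all tested genes outside the 10. By the root mean square difference of log2(RPKM + 1) over the 4 libraries, each gene centered on its own mean, these were Trap1 (0.036), which encodes a mitochondrial chaperone, Ung (0.037), which encodes uracil-DNA glycosylase, and Rnf113a1 (0.040). The median over all genes was 0.551. Likeness over 4 libraries is a description of those libraries.

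Ccne1, the E-type cyclin often amplified in cancers, was 10.3 RPKM (parental), 12.7 (vector), 14.9 (exon 3) and 27.2 (exon 2). The groups did not overlap, but the exon 3 knockout was much closer to the vector control than to the exon 2 knockout. Controls averaged 11.5 ± 1.70 and knockouts 21.05 ± 8.70 (SD, n = 2 each). Its log2 change was 0.77 (SE 0.358, limma adjusted p 0.271). Without the exon 2 knockout it was 0.35 and without the exon 3 knockout 1.18, so the size rested on the exon 2 line. The 95% Poisson intervals of the exon 3 knockout (13.5 to 16.4) and the vector control (11.5 to 14.0) overlapped. Ccne1 lies on the minus strand of chromosome 7 from 38097984 to 38107534.

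The stretches around the annotated starts of Ccnd3 and Ccne1, from RefSeq (GRCm38.p6), are shown because these were the genes whose libraries separated by group, and that of Cdk4 because it held the most E-boxes of the starts matched. Each runs 5′ to 3′ on the gene's strand, from 250 bases before to 50 after the start. Capitals mark GC boxes (GGGCGG on either strand) and E-boxes (CACGTG, the same on both strands and bound by Myc). Ccnd3 has 2 starts, at chr17:47504801-47505100 (+) and chr17:47593217-47593516 (+). Ccne1 is at chr7:38107441-38107740 (-) and Cdk4 at chr10:127063285-127063584 (+).

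Ccnd3 first start: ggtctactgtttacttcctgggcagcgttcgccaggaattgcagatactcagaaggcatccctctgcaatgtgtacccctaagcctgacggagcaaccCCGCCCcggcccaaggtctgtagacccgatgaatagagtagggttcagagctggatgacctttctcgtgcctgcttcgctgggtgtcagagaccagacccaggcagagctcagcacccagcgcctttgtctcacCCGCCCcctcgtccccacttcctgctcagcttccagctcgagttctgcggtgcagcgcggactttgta

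Ccnd3 second start: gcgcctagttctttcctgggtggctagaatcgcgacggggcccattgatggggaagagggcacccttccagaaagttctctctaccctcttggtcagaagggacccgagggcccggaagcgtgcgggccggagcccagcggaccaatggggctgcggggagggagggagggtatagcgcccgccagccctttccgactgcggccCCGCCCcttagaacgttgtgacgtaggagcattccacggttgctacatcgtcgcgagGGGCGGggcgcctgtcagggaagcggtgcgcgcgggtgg

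Ccne1: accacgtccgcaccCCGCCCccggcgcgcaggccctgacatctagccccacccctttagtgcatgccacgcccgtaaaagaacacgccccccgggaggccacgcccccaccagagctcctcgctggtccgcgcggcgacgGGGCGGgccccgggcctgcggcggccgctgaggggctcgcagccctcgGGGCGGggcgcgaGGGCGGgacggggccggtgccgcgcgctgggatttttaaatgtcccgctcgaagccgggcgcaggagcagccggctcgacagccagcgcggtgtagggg

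Cdk4: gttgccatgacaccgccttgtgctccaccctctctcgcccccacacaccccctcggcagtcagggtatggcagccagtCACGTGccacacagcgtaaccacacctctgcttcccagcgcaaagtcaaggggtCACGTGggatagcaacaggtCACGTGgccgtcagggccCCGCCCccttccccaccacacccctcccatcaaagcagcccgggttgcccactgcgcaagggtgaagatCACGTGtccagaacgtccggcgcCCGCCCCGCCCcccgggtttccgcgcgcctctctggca

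In these windows each Ccnd3 start held 2 GC boxes, Ccne1 held 4, and Cdk4 held 3 GC boxes and 4 E-boxes. Of 9 starts matched for 7 of the 10 genes, 8 held a GC box, against 35.7% of 32851 starts of all genes, and 2 (Cdk4 and Cdk6) held an E-box, against 7.15%. Exact E2F motifs were searched on both strands as TTTCGCGC, TTTGGCGC and TTTCCCGC. The third was found at Cdk2 and at 1 Cdkn2a start and at 1.07% of all starts, and the other two at 0 of the 9 (0.323% and 0.514% of all starts). A match is a stretch of letters and not a measured site. Which of the 2 Ccnd3 starts gave the reads is not resolved by the table.

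Ccne2, the second E-type cyclin, had a log2 change of the opposite sign to that of Ccne1, and its groups overlapped. Its RPKM was 2.74 (parental), 4.83 (vector), 2.03 (exon 3) and 2.82 (exon 2). The vector control stood above the other 3. These values rest on 58 to 149 reads per library, the fewest of the 10 genes. The log2 change was -0.46 (SE 0.383, limma adjusted p 0.529), and it was 0.11 after the GC and length correction, Ccne2 having the lowest coding GC content of the 10 (39.8%).

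The balance of the E-type cyclins, examined after their values were seen, was given as a ratio. Ccne1 RPKM was 3.76 times that of Ccne2 (parental), 2.63 times (vector), 7.32 times (exon 3) and 9.65 times (exon 2). Both knockouts were above both controls. On the log2(RPKM + 1) scale the ratio was higher in the knockouts by 1.22, and by 0.83 after the GC and length correction. Because the pair was picked for this pattern, no test was made.

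**Figure D3:**
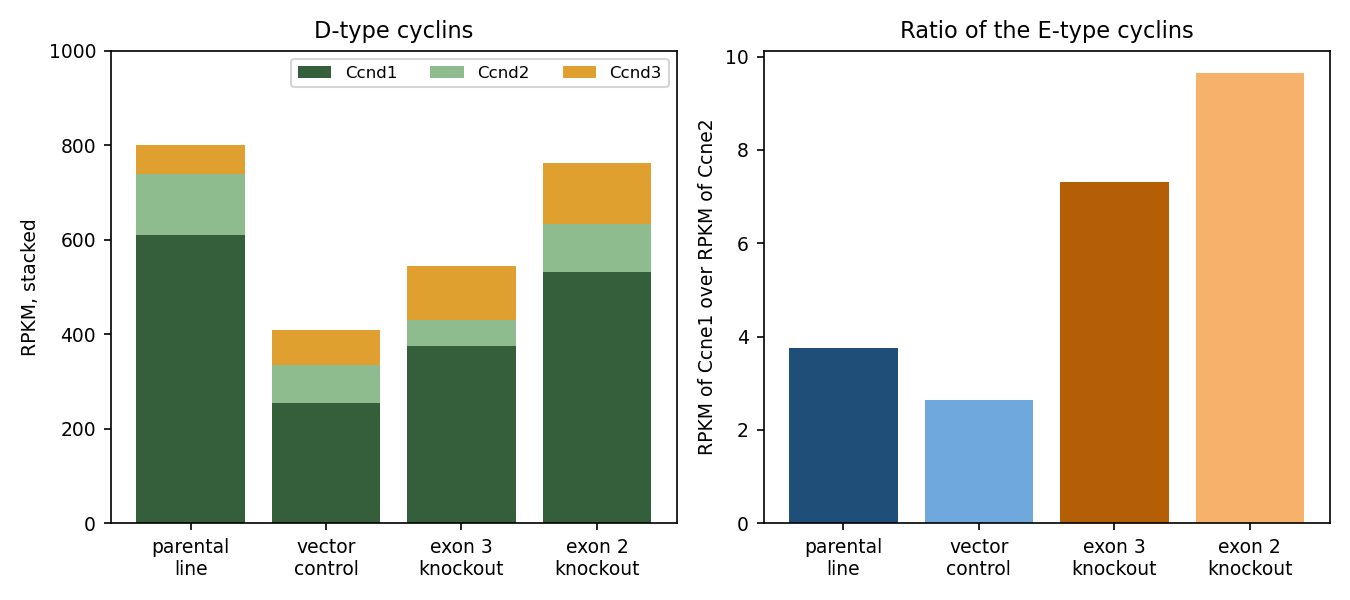
Left, RPKM of the 3 D-type cyclins stacked in each library (linear axis from 0). Right, RPKM of Ccne1 divided by RPKM of Ccne2 in each library. The D-type total is lowest in the vector control (409), and the E-type ratio is 7.32 and 9.65 in the knockouts against 3.76 and 2.63 in the controls.

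Ccnd1, the main D-type cyclin of mammary epithelium, was 609 RPKM (parental), 253 (vector), 375 (exon 3) and 532 (exon 2). Both knockouts lay between the controls. The vector control was at 0.416 times the parental line, the only one of the 10 genes at least 2-fold apart between the controls, where 8.53% of all tested genes were. The log2 change between groups, 0.18 (SE 0.405, limma adjusted p 0.829), was smaller than its SE and turned to -0.45 when the vector control was left out and was 0.81 when the parental line was. LTO1, which is annotated across Ccnd1 on the opposite strand, was not analysed here.

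Ccnd2 was 131 RPKM (parental), 82.1 (vector), 55.1 (exon 3) and 102 (exon 2). The order of the lines did not follow the groups, the exon 3 knockout being lowest and the parental line highest. Its log2 change was -0.46 (SE 0.369, limma adjusted p 0.509), and it was -0.022 without the exon 3 knockout and -0.90 without the exon 2 knockout.

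Summed over the 3 genes, D-type cyclin RPKM was 800 (parental), 409 (vector), 545 (exon 3) and 762 (exon 2). Ccnd1 made up 61.9% to 76.1% of the sum in every line. The share of Ccnd3 was 7.51% (parental), 18.0% (vector), 21.1% (exon 3) and 16.9% (exon 2). The parental line thus stood apart in this share, and the vector control lay between the knockouts.

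Cdk4, the kinase partner of D-type cyclins that dominated here, was 397 RPKM (parental), 610 (vector), 573 (exon 3) and 630 (exon 2). Only the parental line was low. The log2 change was 0.29 (SE 0.318, limma adjusted p 0.636), and it was 0.60 when the vector control was left out and -0.022 when the parental line was. Tspan31 overlaps Cdk4 on the opposite strand. Cdk6, the second partner, was 18.4, 19.5, 18.2 and 25.4 RPKM in the parental line, vector control, exon 3 knockout and exon 2 knockout. Only the exon 2 knockout stood apart. Its log2 change was 0.17 (SE 0.318, limma adjusted p 0.792). Cdk4 RPKM was 21.6 to 31.6 times that of Cdk6 in every line.

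Cdk2, the partner of the E-type cyclins, was 25.3 RPKM (parental), 41.0 (vector), 31.3 (exon 3) and 32.2 (exon 2). The knockouts lay between the controls and differed from each other by less than the controls did. Between groups the log2 change was -0.023 (SE 0.328, limma adjusted p 0.981).

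Of the inhibitors, Cdkn1b was 30.5 RPKM (parental), 48.0 (vector), 32.99 (exon 3) and 52.3 (exon 2). Each group held a low and a high line. For the groups as a whole the log2 change was 0.12 (SE 0.350, limma adjusted p 0.881). Cdkn1b is known to be controlled largely at the level of protein turnover, which RNA does not show.

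Cdkn2a was 1022 RPKM (parental), 1033 (vector), 986 (exon 3) and 1153 (exon 2), the narrowest range of the 10 (1.17-fold from lowest to highest). Between groups the log2 change was 0.054 (SE 0.297, limma adjusted p 0.940). The gene lies on the minus strand of chromosome 4 from 89274471 to 89294653, and its 697 bases in the RPKM values equal the union of its annotated coding exons. The p16Ink4a and p19Arf transcripts therefore share this 1 value and were not separated. Its neighbor Cdkn2b, which encodes p15Ink4b, was at 187, 129, 134 and 171 RPKM in the same order of lines, and Cdkn2a was 5.47 to 8.02 times as high.

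The spread within each group was examined next. Within the control pair, 8 of the 10 genes were higher in the vector control (63.4% of all tested genes were), and the median size of the log2 difference was 0.63, against 0.36 over all tested genes. Between the exon 2 and exon 3 knockouts, all 10 were higher in the exon 2 line (54.4% of all tested genes were). None of the 10 was at least 2-fold apart there, against 4.99% of all tested genes. The median size of that difference was 0.40, against 0.32 over all tested genes. These pairs are single libraries and no test was made. The exon 2 knockout alone is titled 308, so the exon edited and the cell name cannot be told apart. For 2 of the 10, Cdk6 and Cdkn2a, the exon 3 knockout was below both controls and the exon 2 knockout above both. Of all tested genes, 7.88% had 1 knockout above and the other below both controls.

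The genes around these 10 in the G1/S pathway were then read from the same fit, in 7 lists of 73 genes. All but Ccna1 (mean 0.0429 RPKM) passed the filter. Of the 72 tested, 0 rose and 0 fell at an adjusted p under 0.05 in limma, 3 had an unadjusted p under 0.05 (Cul3, Cul1 and Ccnf, where 19.1% of all tested genes did), 30 had a positive and 42 a negative log2 change, and the median was -0.07, against -0.08 for all tested genes.

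Among the retinoblastoma family and the E2F factors with their partners, 11 of 13 had a negative log2 change and the median was -0.41. Both knockouts were below both controls for 7 of the 13 (31.2% of all tested genes) and above both for 2, E2f1 and E2f4 (21.9% of all tested genes). For E2f4 the exon 2 knockout (54.03 RPKM) was all but equal to the vector control (54.00 RPKM). Rb1, the retinoblastoma gene itself, was 2.29 RPKM (parental), 4.06 (vector), 1.29 (exon 3) and 1.27 (exon 2). Its log2 change was -0.84 (SE 0.387, limma adjusted p 0.266), and it was -0.11 after the GC and length correction. Rbl2, which encodes p130, had a log2 change of -0.59 (limma adjusted p 0.342) and -0.17 after the correction. E2f3, an activator E2F, was 9.25 (parental) and 8.54 RPKM (vector), then 5.63 (exon 3) and 6.75 (exon 2). Its log2 change was -0.46 (limma adjusted p 0.450) and -0.65 after the correction.

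The 17 E2F target genes of G1/S, which encode replication proteins and nucleotide enzymes, had a median log2 change of -0.03, with 7 positive and 10 negative. Both knockouts were above both controls for 1 of the 17, Cdt1 (21.9% of all tested genes), and below both for 0 (31.2% of all tested genes). Cdt1, a replication licensing factor, was 48.3 (parental) and 55.7 RPKM (vector), then 85.3 (exon 3) and 76.5 (exon 2) (log2 change 0.63, SE 0.294, adjusted p 0.271 in limma), and its log2 change was 0.37 after the GC and length correction. Between the controls the picture differed. All 17 were higher in the vector control than in the parental line, by a log2 difference of 0.20 to 1.26 with a median of 0.73, against a median of 0.16 over all tested genes. This is a difference between 2 single libraries, and in the same pair Ccnd1 was lower and Cdk2, Cdk4 and Ccne2 were higher in the vector control.

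**Figure D4:**
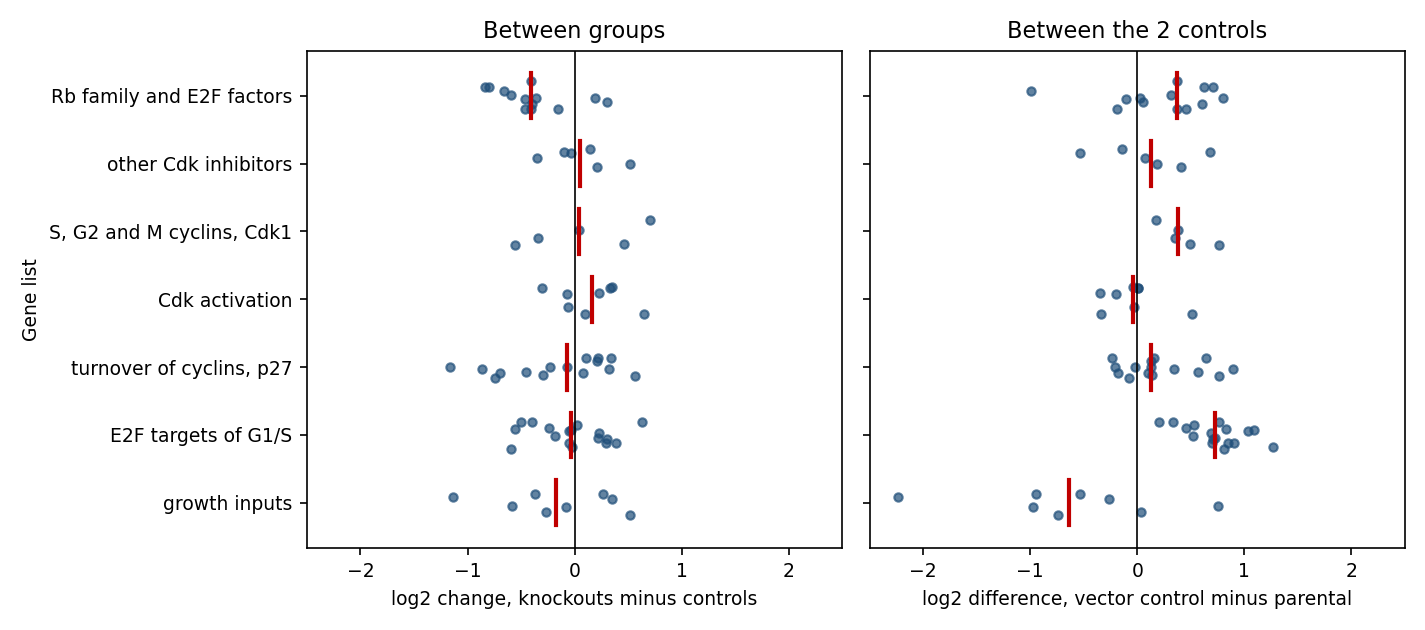
Log2 differences of 72 G1/S pathway genes in 7 lists, 1 point per gene (vertical position within a list is arbitrary), with the median of each list as a red line. Left, knockouts minus controls; right, vector control minus parental line. The E2F targets center near 0 on the left (median -0.03) and all lie above 0 on the right (median 0.73).

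The turnover list holds genes for the turnover of cyclins D and E and p27. Many but not all encode subunits of ubiquitin ligases, and the members need not act in the same direction. In this list 8 of 15 had a negative log2 change and the median was -0.07. Both knockouts were below both controls for 7 of the 15 and above both for 4, against 31.2% and 21.9% of all tested genes. Cul3, a cullin scaffold for cyclin E turnover, was 32.1 (parental) and 27.7 RPKM (vector), then 11.8 (exon 3) and 13.7 (exon 2). It had the largest log2 change of the 72, -1.17 (SE 0.309, limma adjusted p 0.126), and it was -0.44 after the GC and length correction. Fbxw7, the F-box protein that recognizes cyclin E, was 6.17, 5.81, 2.58 and 3.86 RPKM in the same order of lines (log2 change -0.75, adjusted p 0.274 in limma), and -0.34 after the correction. Cul1, the scaffold it works on, had a log2 change of -0.86 (limma adjusted p 0.220) and -0.21 after the correction. These 3 were named for the gap between their groups, and none passed the test. Rbx1, the RING subunit that works with cullins, was 42.3 (parental), 72.5 (vector), 84.5 (exon 3) and 80.2 RPKM (exon 2), above both controls in both knockouts (log2 change 0.56, limma adjusted p 0.367).

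The other lists were mixed. Of 6 other Cdk inhibitors, 3 had a positive and 3 a negative log2 change. Cdkn2d, which encodes p19Ink4d, was 36.9, 42.1, 59.6 and 54.6 RPKM in the parental line, vector control, exon 3 and exon 2 knockouts (log2 change 0.52, adjusted p 0.354 in limma), and its change was 0.07 after the correction. Cdkn3 had a log2 change of -0.35 (limma adjusted p 0.576) and -0.0045 after the correction. Of 5 cyclins and kinases of S, G2 and M phase, Ccnf, which encodes cyclin F, was 12.7, 14.4, 23.9 and 21.5 RPKM (log2 change 0.71, adjusted p 0.246 in limma). Ccna2, the S phase cyclin, was 75.0, 128, 65.5 and 67.3 RPKM, and Cdk1 was 128, 180, 189 and 232 RPKM, all in that order of lines. Of 8 genes for the Cdk-activating kinase with its subunits, Cdc25 phosphatases and Wee1 kinases, 5 had a positive log2 change. The 3 of these furthest apart by group, Pkmyt1, Cdc25b and Cdc25a, had log2 changes of 0.65, 0.34 and 0.35 (adjusted p 0.291, 0.564 and 0.573 in limma), and 0.38, 0.21 and 0.43 after the correction. Of 8 growth inputs, Junb, Gsk3b and Foxo1 had log2 changes of -0.58, -0.27 and 0.35 (adjusted p 0.354, 0.654 and 0.592 in limma), and -0.91, -0.083 and 0.16 after the correction.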

How the data were processed

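RNA-seq libraries were made with a stranded total RNA kit per the labels. The study's methods instead name the TruSeq RNA Sample Preparation kit, with no strand setting given. The submitters' processing notes name CASAVA (version 1.8), the aligner GSNAP and GRCm38, without saying which step each served. The study's methods give GSNAP for aligning RNA-seq reads, in which indels at the guide sites were then counted, and for aligning single-cell reads. The authors deposited RPKM values, 1 column per library, on a linear scale. The counting rule, gene model and strand setting behind them are not given in the sources used here. Columns were matched to samples by the label, and groups were taken from titles. Whole reads were recovered from ratios of RPKM values (15404 of 15405 genes above 0, tolerance 0.001 reads, or 2e-07 of the count where that is larger). They set the Poisson intervals, which cover counting error only. Absolute counts rest on annotated lengths where these gave whole reads, and otherwise on the length nearest the annotated one that did. Of tested genes with a coding sequence, 56.0% used the coding length of an annotated transcript.

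Values were analysed as log2(RPKM + 1), which understates changes of low genes. Knockouts and controls were compared with limma 3.58.1 in R 4.3.3, with the prior variance following mean intensity, 2 knockouts against 2 controls, no covariates, genes with mean RPKM of at least 1, Benjamini-Hochberg adjusted over all 10871 tested genes, called under 0.05. It was also run on simulated counts with the same dispersion for every gene. That does not show how it performs on groups made of different lines. SE is the moderated standard error. The GC and length correction removed from each library a spline fit (5 degrees of freedom each) on coding GC content and gene length from GENCODE M21 (GRCm38). Python 3.11.15 with pandas 2.3.3 and scipy 1.17.1 did the rest. The 10 genes and all lists were chosen with earlier results of these data known. Named genes were the 10, S100a4, markers at the extremes of their lists, up to 3 genes per pathway list with the largest smallest change over the 4 knockout and control pairs, and the 3 genes most like the member that changed most. Krt5, Krt14, Epcam, Cdh1, LTO1, Bysl, Ccnd3-ps, Tspan31, Cdkn2b, Ccna1, E2f1, E2f4, Rbx1, Mycn and Mcm3 were named outside this rule, after values were seen. Start-site sequences were from RefSeq (GRCm38.p6), which matched 7 of the 10 genes.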

Additional observations from a re-analysis of the deposited data

Results flagged for a closer look

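Cdk6 and Cdkn2a drew attention because the 2 knockout lines lay on opposite sides of both controls, the exon 3 knockout below and the exon 2 knockout above. How the knockouts differ was not tested, as each has 1 library, and they differ in both the exon edited and the cell name. For Cdk6 the log2 difference of exon 3 minus exon 2 was -0.47. Its exon 3 value of 18.2 RPKM (95% Poisson interval 16.5 to 19.98, 418 reads) overlapped that of the parental line, 18.4 (16.9 to 19.99, 564 reads). For Cdkn2a the log2 difference was -0.23, from 986 RPKM (971 to 1002, 16136 reads) to 1153 (1137 to 1170, 18065 reads), with the parental line at 1022 (1008 to 1035). The exon 3 interval of Cdkn2a lay below that of the parental line by a small margin, and these intervals do not include differences between cultures.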

How the results depend on the processing

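No member was called under any of the 13 alternatives run (lowest adjusted p 0.0672 in limma, Ccnd3 without the vector control). Ccnd2, Ccnd3 and Ccne1 kept their direction in all of them. Signs turned in 16 of 129 member results. Under quantile normalization the log2 change was -0.022 for Ccnd1, 0.0036 for Cdk2 and -0.24 for Cdkn2a. After median ratio scaling it was 0.068 for Cdk2. After the GC and length correction it was -0.13 for Ccnd1, 0.11 for Ccne2, -0.29 for Cdkn1b and -0.36 for Cdkn2a, and, with the sign kept, -0.73 for Ccnd2, -0.095 for Cdk2, 0.081 for Cdk4 and 0.0068 for Cdk6. Leaving out each library in turn gave -0.45 to 0.81 for Ccnd1, -0.36 to 0.31 for Cdk2, -0.022 to 0.60 for Cdk4, -0.060 to 0.41 for Cdk6, -0.21 to 0.44 for Cdkn1b and -0.059 to 0.17 for Cdkn2a.

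The number of all genes called, 2, was 1 with a pseudocount of 0.1 RPKM, 1 under quantile normalization, 0 after median ratio scaling, 0 without a filter, 0 with voom on recovered reads, 8 after the GC and length correction, 32 with a mean RPKM of 5 or more as the filter and 285 with a robust prior. It was 3 to 788 when each library was left out, 451 with the vector control left out and 788 with the parental line left out, where the lone control is assumed to vary like the knockouts. Of the wider pathway genes 1 (Cul3) was called with a robust prior, and 0 to 1 when each library was left out (Mycn without the vector control, Mcm3 without the parental line). The number of members whose groups did not overlap was 2 (53.2% of all tested genes). It was 4 after median ratio scaling (also Cdk4 and Cdk6, 55.0% of all tested genes). Under quantile normalization it was 4 (also Cdk6 above and Cdkn2a below, 51.8%). After the GC and length correction it was 3 (also Cdkn2a below, 44.5%). With 1 library left out it was 5 to 7 (72.0% to 79.2%), where fewer libraries must separate. At 1.5-fold in place of 2-fold, 1 member (Ccnd3) was apart in all 4 pairs. The share of all tested genes at 1.5-fold was not computed, so this count has no background beside it. The cause was not tested for any of these. No paired analysis was possible because the labels give no replicate numbers. Some pairs lay close beside their counting error. The 95% Poisson intervals of the controls overlapped for Cdk6 and Cdkn2a, and those of the knockouts for Cdk2 and Ccne2. Such overlap does not show that the libraries of a pair were equal.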
